A study of Mus musculus with 68 samples.

Results

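RNA of the wildtype mouse pharyngeal arch 1 (PA1) was followed from embryonic day (E) 9.5 to E10.5 across all genes of the deposited table. The 8 libraries described here, 5 of E9.5 and 3 of E10.5, were chosen by their labels from the 68 libraries of the study, which measured PA1 and PA2 of wildtype and Hoxa2-/- embryos at 4 stages. Each library is 1 hand-dissected arch sample, and the series text states that PA1 and PA2 came from a single embryo. All embryos carry the strain label CBA/Ca/J x C57BL/10, and the compared groups carry the genotype label wildtype and differ by stage label. For reference, wildtype PA1 of E9.0 (5 libraries), wildtype PA2 of E9.5 and E10.5 (4 and 3 libraries) and PA1 labelled Hoxa2-/- of E9.5 and E10.5 (5 and 3 libraries) were read beside them. Hoxa2 is a homeobox transcription factor gene that sets the identity of PA2 and is normally off in the neural crest of PA1. The comparison asks how the PA1 transcriptome changes over 1 day of growth.

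PA1 is the swelling from which the upper and lower jaws form. Its core of cranial neural crest cells, the ectomesenchyme, is wrapped in surface ectoderm and lined by pharyngeal endoderm, and it holds muscle progenitors, vessels and circulating blood. Over this window the ectomesenchyme is known to be divided into upper, lower, oral and outer domains by the transcription factors of the Dlx, Hand, Msx, Alx and Lhx families under Edn1, Fgf8, Bmp4 and Shh signals. In many tissues of the embryo the same period also ends an early programme marked by Lin28a, an RNA-binding protein that blocks maturation of the let-7 microRNAs.

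Expression is given in CPM, read counts that the authors scaled to a common library total, a unit that is not per gene length and is therefore not compared between genes. The 8 libraries held between 12539124 and 19611887 reads in genes, so that 3 reads corresponded to between 0.156 and 0.240 CPM. Of the 21948 genes of the table, 18428 reached 1 CPM in at least 3 of the 68 libraries and were tested. Each pair of values comes as mean ± SD with n = 5 at E9.5 and n = 3 at E10.5, and a difference is a change of log2(CPM + 1), E10.5 minus E9.5, with its standard error (SE). A gene is said to rise or fall where its adjusted p in limma was under 0.05. Whether libraries with the same label came from separate litters is not given in the sources used here. The p-values therefore measure the spread between libraries within groups, pooled over all 68 libraries of the study and not over these 8 alone. In bulk tissue, fewer cells of a type and less RNA per cell cannot be told apart.

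The libraries carried markers of arch ectomesenchyme and little Hox RNA. Twist1, a neural crest and mesenchyme factor, had 65.8, 54.9, 73, 73.3 and 44.9 CPM in the 5 E9.5 libraries and 47.1, 67.9 and 52.7 CPM in the 3 E10.5 libraries. The lower-jaw factor Dlx5 had 63.5 ± 16 CPM at E9.5 and 61 ± 8.95 CPM at E10.5. The 13 Hox genes of PA2 and more posterior tissue in the table summed to between 0.832 and 3.10 CPM in any of the 8 libraries. The E9.5 libraries were not uniform. A chi-square of recovered reads, divided by its degrees of freedom, was 7.37 to 36.6 for pairs of E9.5 libraries and 6.20 to 6.36 for pairs of E10.5 libraries. At E9.5 the closest pairs were replicates 1 and 3 (7.372) and replicates 2 and 5 (9.075), each far from the other pair (24.9 to 36.6). Replicate 4 lay between them, at 13.2 to 16.5 from every other library, and was put with replicates 1 and 3 where the libraries were divided. For Slitrk6, Tbx22, Lhx6, Emx2 and Syt6, replicate 5 was far above the other 4 E9.5 libraries and below every E10.5 library. Across the study, libraries also divide by the level of Ski, which was between 36.5 and 80.3 CPM at E9.5 and between 42.2 and 54.8 CPM at E10.5 in wildtype PA1. Wildtype PA1 of E10.0 lay at 9.52 to 15.3 CPM of Ski and was left out of the comparison. By Xist, 4 of 5 libraries at E9.5 and 2 of 3 at E10.5 were female.

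Between E9.5 and E10.5 a large part of the PA1 transcriptome differed. Of 18428 tested genes, 7543 (40.9%) passed the threshold, 3655 (19.8%) higher and 3888 (21.1%) lower at E10.5. The changes were mostly small: the median size among genes past the threshold was 0.56, and 670 genes (3.64%) rose and 489 (2.65%) fell by at least 1. A change of at least 2 was seen in 84 risers (0.456%) and 28 fallers (0.152%). The ranges of the 2 groups did not overlap for 3602 genes higher (19.5%) and 3770 lower (20.5%). The median difference over all tested genes was 0.00. With replicates 1, 3 and 4 of E9.5 left out, 4799 genes passed, of which 4299 were among the 7543. With replicates 2 and 5 left out, 7922 passed, of which 6724 were among the 7543.

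**Figure D1:**
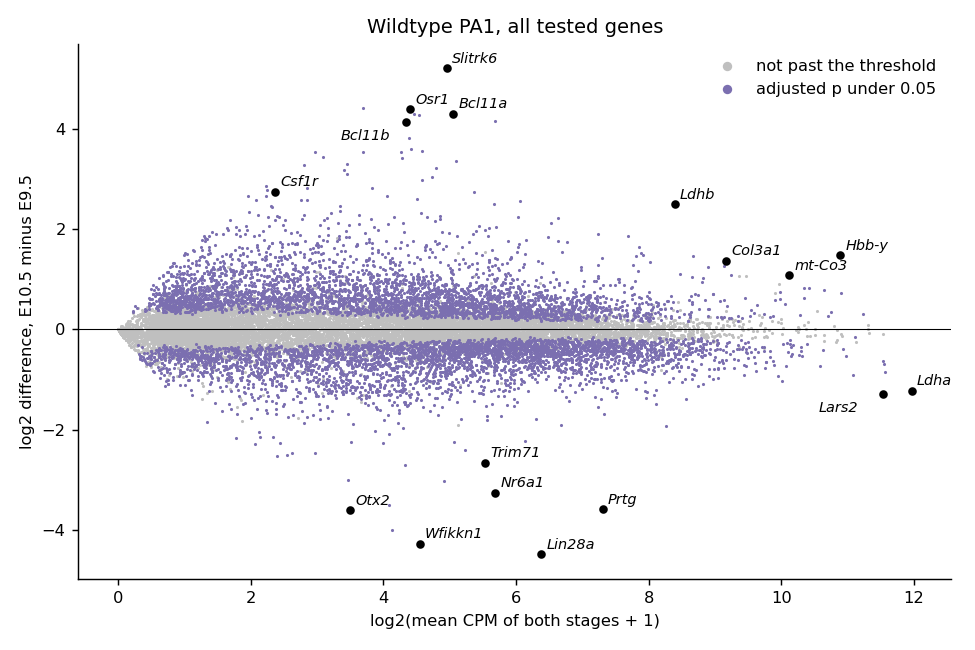
The difference of log2(CPM + 1) between E10.5 and E9.5 in wildtype PA1 is plotted for each tested gene against log2 of the mean CPM of both stages plus 1. Genes past the adjusted p threshold are violet and named genes black. Slitrk6 stands at 5.21 and Lin28a at -4.49, the extremes in each direction among genes named by the rule.

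The clearest gains were in genes that were nearly silent at E9.5. Slitrk6, which encodes a transmembrane protein with leucine-rich repeats that shapes neurite growth and synapses, lies at chr14:110748580-110755149 on the minus strand (GRCm38). It had 0.156, 0.57, 0.478, 0.481 and 1.91 CPM in the 5 E9.5 libraries and 54.6, 64.3 and 59.1 CPM in the 3 E10.5 libraries. All E10.5 libraries were far above all E9.5 libraries, and replicate 5 was the highest of E9.5. The difference was 5.21 (SE 0.37, adjusted p = 9.36e-17). Bcl11a, a zinc finger repressor known from the switch of globin genes and from neurons, lies at chr11:24078056-24174123 on the plus strand. Its E9.5 values were 2.55, 2.11, 0.342, 1.92 and 6.3 CPM and its E10.5 values 57.2, 67.1 and 60.3 CPM, a rise of 4.30 (SE 0.48, adjusted p = 1.69e-10). Its paralog Bcl11b, best known from T cells and corticospinal neurons and located at chr12:107910403-108003602 on the minus strand, had 1.35, 1.14, 0.41, 0.561 and 3.33 CPM at E9.5 and 33, 38 and 40.3 CPM at E10.5 and rose by 4.13 (SE 0.40, adjusted p = 3.07e-12). In neither paralog did the stages overlap. At E9.0 the means were 0.34 ± 0.205 CPM for Slitrk6, 0.471 ± 0.266 CPM for Bcl11a and 0.382 ± 0.17 CPM for Bcl11b (n = 5), all below their E9.5 means.

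Bcl11a and Bcl11b act with chromatin complexes of the NuRD and SWI/SNF kinds, with CtBP corepressors and with Nr2f receptors. Of 17 tested genes for such partners, the paralogs themselves left out, 2 rose (11.8%, against 19.8% of all genes) and 6 fell (35.3%, against 21.1%), and the median was -0.17. The risers were Rbbp4, a histone-binding subunit of NuRD and PRC2, and the deacetylase Hdac2, at 556 ± 46.9 CPM and 648 ± 17.6 CPM. Rbbp4 varied strongly among the E9.5 libraries, with 225, 764, 217, 343 and 531 CPM, and its rise was lost without replicates 1, 3 and 4 (adjusted p = 0.603). The call of Hdac2 was lost without replicate 2 or 4 of E9.5 or replicate 1 or 2 of E10.5, with an adjusted p up to 0.111. The fallers included Ctbp2, a corepressor, from 151 ± 15.2 to 95 ± 6.17 CPM, and the orphan receptor Nr2f6, from 51.3 ± 3.93 to 27.2 ± 0.742 CPM.

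**Figure D2:**
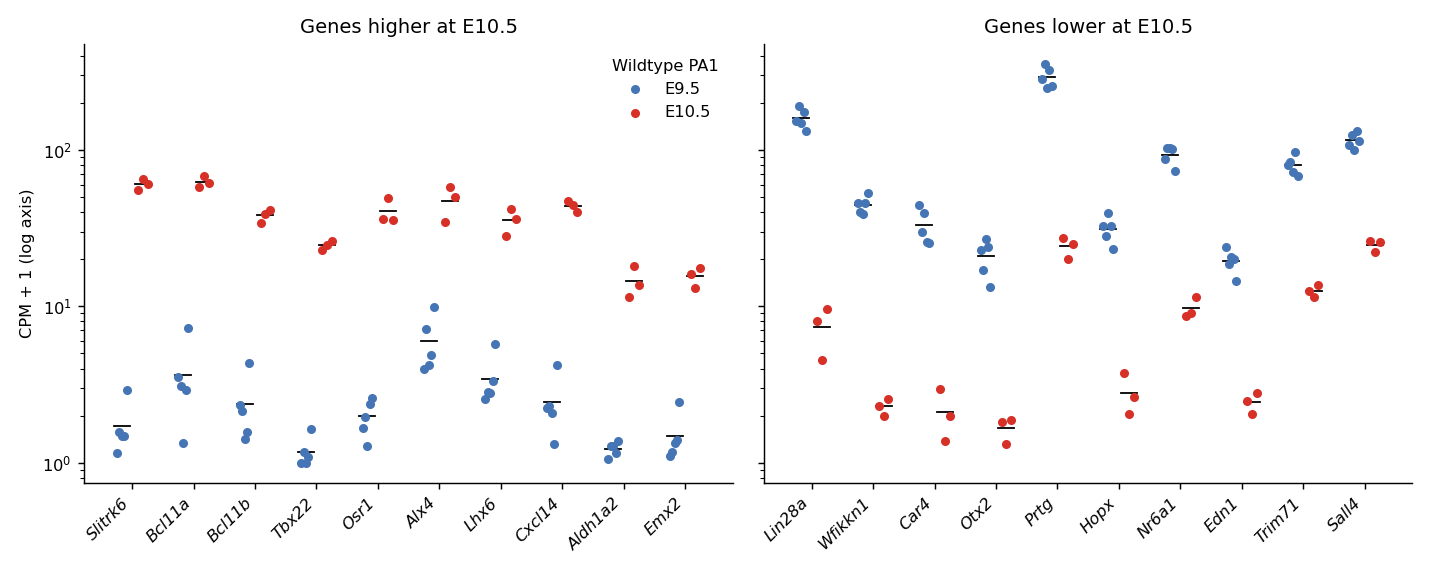
CPM + 1 on a log axis is shown for each wildtype PA1 library at E9.5 (blue, 5 libraries) and E10.5 (red, 3 libraries), with black bars at the group means, for 10 genes higher and 10 lower at E10.5. The stages do not overlap for any of the 20 genes, but most were named by a rule that asked for this. Of all tested genes, 19.5% were higher and 20.5% lower without overlap. The topmost E9.5 point of Slitrk6 (1.91 CPM) and Lhx6 (4.76 CPM) is replicate 5.

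Among transcription factors and signals that pattern the ectomesenchyme, more rose than fell. Of 42 tested genes in the list, 24 rose (57.1%, against 19.8% of all genes) and 5 fell (11.9%, against 21.1%), with a median of 0.84 against 0.00 over all genes. With replicates 1, 3 and 4 of E9.5 left out, 17 rose and 5 fell, and with replicates 2 and 5 left out, 23 rose and 4 fell. This list, like the other lists here, was chosen with earlier results of these data known, so its shares are a description.

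Several of the largest gains were in factors of particular jaw domains. Osr1, an odd-skipped zinc finger factor of mesenchyme at chr12:9570116-9581500 on the plus strand, had 0.676, 0.97, 0.273, 1.36 and 1.59 CPM at E9.5 and 35.2, 48.3 and 34.8 CPM at E10.5 and rose by 4.38 (SE 0.39, adjusted p = 3.1e-13). Its paralog Osr2, needed for growth of the palate, went from 0.983 ± 0.376 to 18.9 ± 5.94 CPM. Tbx22, a T-box factor of the palate whose human gene is mutated in X-linked cleft palate, lies at chrX:107667964-107688978 on the plus strand and had 0, 0.171, 0, 0.0802 and 0.635 CPM at E9.5 and 21.8, 23.8 and 25.2 CPM at E10.5. The E9.5 libraries were at or near 0 apart from replicate 5, and the difference was 4.41 (SE 0.26, adjusted p = 7.09e-20). Gsc, a homeobox factor of the lower jaw and ear that acts below endothelin signalling, went from 1.14 ± 0.51 to 18.1 ± 4.76 CPM.

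Alx4, an aristaless-related homeobox gene of the frontonasal and distal jaw mesenchyme, rose from 5.03 ± 2.53 to 46.3 ± 11.5 CPM. The LIM homeobox genes Lhx6 and Lhx8, markers of the oral side of PA1 that lie downstream of Fgf8, moved alike: Lhx6 had 1.56, 1.83, 1.78, 2.32 and 4.76 CPM at E9.5 and 27.2, 41.1 and 35.1 CPM at E10.5, a rise of 3.41 (adjusted p = 1.74e-13), and Lhx8 had 12.3, 12.9, 9.7, 9.14 and 35 CPM and 67.2, 99.1 and 84.3 CPM, a rise of 2.49 (adjusted p = 3.72e-07). In both, replicate 5 was the highest E9.5 library and still below every E10.5 library. Emx2, a homeobox factor also used in the brain and urogenital system, went from 0.489 ± 0.539 to 14.5 ± 2.23 CPM. Shox2, a short-stature homeobox factor of the palate and limb, went from 0.263 ± 0.0932 to 5.58 ± 2 CPM.

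Broad ectomesenchymal factors that were already present at E9.5 changed less. Msx1, a homeobox factor of the distal arches and tooth buds, had 156, 151, 81.7, 132 and 233 CPM at E9.5 and 320.2, 416 and 359.7 CPM at E10.5 and rose by 1.34 (SE 0.20). Prrx1, a paired-type factor of jaw and limb mesenchyme, rose from 121 ± 25 to 219.9 ± 19.8 CPM, while its paralog Prrx2 fell from 153 ± 17.9 to 92.9 ± 6.41 CPM. Dlx1 rose from 41.2 ± 5 to 57.4 ± 2.34 CPM and its genomic neighbour Dlx2 fell from 89.9 ± 12 to 57.9 ± 5.25 CPM. The call of Dlx1 was lost without replicate 1, 2 or 4 of E9.5 or replicate 1, 2 or 3 of E10.5, with an adjusted p up to 0.112. The call of Dlx2 was lost without replicate 1 or 2 of E10.5, with an adjusted p up to 0.0564. Without replicates 1, 3 and 4 of E9.5 the adjusted p of Prrx1 was 0.0526. The lower-jaw genes Dlx5, Dlx6 and Hand2 did not pass, with differences of -0.03, -0.25 and 0.18, nor did Twist1 at -0.15. Barx1, a marker of the proximal jaw mesenchyme, had 219, 175, 81.8, 166 and 189.7 CPM at E9.5 and 102, 139.7 and 107 CPM at E10.5, and the ranges overlapped because replicate 3 of E9.5 was low (adjusted p = 0.55). Edn1, the endothelin ligand that sets lower-jaw identity in this mesenchyme, was the most strongly lowered member of the list: 22.9, 17.7, 19.7, 19.1 and 13.6 CPM at E9.5 and 1.47, 1.054 and 1.77 CPM at E10.5, a difference of -3.003 (SE 0.27, adjusted p = 1.78e-13). Its receptor gene Ednra rose from 32 ± 4.36 to 86.6 ± 17.3 CPM, so ligand and receptor moved in opposite directions.

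Other genes among the largest gains encode secreted, matrix and membrane proteins. Cxcl14, a chemokine, had 1.25, 1.31, 1.09, 0.321 and 3.23 CPM at E9.5 and 46.4, 43.4 and 38.8 CPM at E10.5, a rise of 4.27 (adjusted p = 3.64e-13). Col8a2, a short-chain collagen, went from 3.04 ± 1.94 to 42.9 ± 2.25 CPM, and Syt6, a synaptotagmin, from 1.15 ± 1.09 to 22.6 ± 6.1 CPM. Zmat4, a zinc finger gene, had 2.34, 1.88, 2.32, 0.882 and 1.59 CPM at E9.5 and 41, 35.3 and 37.2 CPM at E10.5. Genes of this rank with provisional symbols were AI606473, from 1.25 ± 1.19 to 40.8 ± 13.7 CPM, and AW551984, from 2.05 ± 0.575 to 34.3 ± 5.12 CPM.

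A stricter rule asked for under 1 CPM in every E9.5 library and at least 5 CPM in every E10.5 library, and 10 genes met it. They included Aldh1a2, which makes retinoic acid from retinaldehyde and lies at chr9:71215789-71296243 on the plus strand, with 0.052, 0.285, 0.273, 0.16 and 0.371 CPM at E9.5 and 10.4, 17.2 and 12.7 CPM at E10.5. Gabrp, a subunit of the GABA-A receptor found outside the brain, had 0, 0.171, 0.0683, 0 and 0.0529 CPM and 5.61, 6.38 and 5.15 CPM. The others with assigned names were Tbx22, the pyrophosphate-making ectoenzyme Enpp1 (0.798 ± 0.202 to 5.49 ± 0.47 CPM), the protocadherin Pcdh10 (0.265 ± 0.156 to 7.14 ± 2.04 CPM) and the retrotransposon-derived Rtl3 (0.113 ± 0.0981 to 7.29 ± 2.64 CPM). Those known only by clone or model names were E130114P18Rik, 3110099E03Rik, 2610316D01Rik and Gm43376, with E10.5 means of 7.45, 11.6, 7.37 and 7.31 CPM. The reverse pattern was met by 2 genes, Otx2 and Sall3.

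The largest loss was of Lin28a. The gene lies at chr4:134003330-134018841 on the minus strand and had 152, 189.6, 148, 173 and 131 CPM in the 5 E9.5 libraries and 7.03, 3.53 and 8.54 CPM in the 3 E10.5 libraries. Every E10.5 library was far below every E9.5 library, the difference was -4.49 (SE 0.25, adjusted p = 3.68e-21), and the mean was 24.9-fold lower. At E9.0 the mean had been 179.5 ± 21.9 CPM (n = 5), close to that of E9.5. Its paralog Lin28b, which acts on the same microRNAs, fell less: 190.2, 246, 164, 189.8 and 259.6 CPM at E9.5 and 77.6, 66.3 and 100.2 CPM at E10.5, a difference of -1.35 (SE 0.20).

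Of 17 tested genes in a list of the Lin28 and let-7 timing pathway, 12 fell (70.6%, against 21.1% of all genes) and 3 rose, with a median of -0.96 against 0.00 over all genes. The list holds genes picked because they are textbook let-7 targets or cofactors. Lin28 proteins act on let-7 precursors, and the mature let-7 strands silence transcripts that pair with their seed, bases 2 to 8. The let-7 RNAs themselves are too short for the polyadenylated libraries and were not measured. The following 3 mature strands, from RefSeq for GRCm38.p6, are given because the transcripts are read against their common seed, which is in capitals.
mmu-let-7a-5p: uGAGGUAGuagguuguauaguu
mmu-let-7g-5p: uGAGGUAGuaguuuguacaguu
mmu-miR-98-5p: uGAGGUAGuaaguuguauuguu
Of the 11 mature strands of this family in the table, 10 share the seed GAGGUAG, and let-7j has GAGGUAU.

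The complement of that seed in a transcript reads CTACCTC in DNA letters. It was sought on the transcript strand in the longest 3′ UTR annotated for each gene in GENCODE M21, with overlapping matches counted. Of the 13807 tested genes with such a UTR, 1484 (10.7%) held at least 1 match. The following sites belong to genes whose levels are given next, each written 5′ to 3′ as the 23 bases that end 1 base past the match, with the match in capitals and the base after it in lower case.
Lin28a site 1, chr4:134005189-134005211, minus strand: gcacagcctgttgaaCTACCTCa
Lin28a site 2, chr4:134004551-134004573, minus strand: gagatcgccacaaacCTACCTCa
Nr6a1 site 2, chr2:38727449-38727471, minus strand: tgttgacaaagacaaCTACCTCa
Trim71 site 1, chr9:114512472-114512494, minus strand: aacattgcctaagtcCTACCTCa
Igf2bp1 site 1, chr11:95961778-95961800, minus strand: gctgtgcgaagtaaaCTACCTCa
Hmga2 site 1, chr10:120364224-120364246, minus strand: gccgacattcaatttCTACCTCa
All 6 lie within 1 exon of the 3′ UTR of their gene, in GRCm38 coordinates, and a match is a description of letters, not of a site in use. The 6 are a selection in which the base after the match is always a. Other matches of Nr6a1, Igf2bp1 and Hmga2, not printed, include ones followed by c or t.

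Nr6a1, an orphan nuclear receptor of early embryos whose 3′ UTR held 8 matches, had 86.2, 101.2, 101.2, 99.9 and 72.6 CPM at E9.5 and 7.62, 8.12 and 10.46 CPM at E10.5, a difference of -3.26 (SE 0.30, adjusted p = 8.3e-13). Its E9.0 mean was 185 ± 20.4 CPM, above that of E9.5. Trim71, a ubiquitin ligase and RNA-binding protein with 4 matches, had 79.1, 83, 71, 96.1 and 66.9 CPM at E9.5 and 11.6, 10.49 and 12.7 CPM at E10.5, a difference of -2.66 (SE 0.18). Igf2bp1, an mRNA-binding protein with 4 matches, had 287, 104, 251, 315 and 238 CPM at E9.5 and 44.2, 139 and 52.4 CPM at E10.5, and its ranges overlapped because replicate 2 of each stage stood apart from the others (adjusted p = 0.00201). Hmga2, an architectural chromatin protein with 4 matches, went the other way: 186, 142, 174, 185 and 126 CPM at E9.5 and 220.3, 234 and 214 CPM at E10.5, a rise of 0.47 (SE 0.19, adjusted p = 0.0375). The call of Hmga2 was lost without replicate 2 or 5 of E9.5 or replicate 1, 2 or 3 of E10.5, with an adjusted p up to 0.115. That of Igf2bp1 was lost without replicates 1, 3 and 4 of E9.5 (adjusted p = 0.12). Its relative Hmga1, with 1 match, fell from 489 ± 47 to 234 ± 21.3 CPM. Mycn, with no match, fell from 357 ± 33.9 to 137 ± 12 CPM. The list members with more than 1 match were Nr6a1, Trim71, Igf2bp1, Lin28b, Hmga2, Lin28a and Arid3a, and each of these fell except Hmga2.

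Across all genes, the shares of risers and fallers were close with and without the match. Among the 1484 genes with at least 1 match, 20.2% rose and 21.4% fell, and among the 12323 genes without one, 22.7% rose and 21.1% fell. Their median differences were 0.01 and 0.03. Genes with a match had longer 3′ UTRs, with a median of 2342 bases against 1101. Of the 26 genes with at least 3 matches, 5 rose (19.2%, against 22.4% of all genes with a 3′ UTR) and 10 fell (38.5%, against 21.2%). The 26 include Nr6a1, Trim71, Igf2bp1, Lin28b and Hmga2, picked for the list as textbook targets or cofactors, and each of these fell except Hmga2. All these counts include list members and are a description.

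Several other genes lost most of their reads. Wfikkn1, a secreted inhibitor of GDF8 and GDF11, had 44.4, 38.8, 37.7, 44.6 and 51.8 CPM at E9.5 and 1.31, 1 and 1.56 CPM at E10.5, a difference of -4.28 (SE 0.31, adjusted p = 2.46e-16). It had been lower at E9.0, at 28.9 ± 2.27 CPM, than at E9.5. Prtg, protogenin, an adhesion receptor of early neural and mesodermal tissue at chr9:72806874-72917291 on the plus strand, had 282, 353, 246, 321 and 254 CPM and 26.1, 19.1 and 24.1 CPM, a difference of -3.60 (SE 0.26). Its E9.0 mean was 456 ± 38 CPM, the highest of the 3 stages. Car4, a membrane-bound carbonic anhydrase, went from 32 ± 8.55 to 1.11 ± 0.802 CPM. Hopx, a homeodomain-only protein of early heart and epithelium, went from 30.2 ± 6.07 to 1.8 ± 0.849 CPM, and Plcg2, a phospholipase C, from 52.9 ± 14.6 to 5.45 ± 0.999 CPM.

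In the list of genes linked to the early embryo more fell than rose: of 17 tested members, 10 fell (58.8%, against 21.1% of all genes) and 1 rose, with a median of -1.15. The list shares members with the Lin28 and let-7 list, among them Lin28a and Nr6a1, so the counts of these lists are not separate. Otx2, a homeobox factor of the anterior head at chr14:48657677-48673819 on the minus strand, had 21.8, 16.1, 25.8, 23 and 12.3 CPM at E9.5 and 0.817, 0.316 and 0.885 CPM at E10.5, a difference of -3.61 (SE 0.27). The spalt zinc finger genes fell together, Sall4 from 114 ± 12.6 to 23.7 ± 2.24 CPM, Sall1 from 22.4 ± 4.42 to 4.78 ± 1.17 CPM and Sall3 from 8.05 ± 2.56 to 0.528 ± 0.206 CPM. The DNA methyltransferase gene Dnmt3b fell from 86.7 ± 5.67 to 37.1 ± 0.904 CPM. Reads listed under Nanog, at 20.2 ± 3.98 and 8.51 ± 1.23 CPM, are uncertain because that gene has near-identical processed copies. The riser was Fgf5, from 0.921 ± 0.435 to 3.23 ± 1.62 CPM, with an adjusted p of 0.0716 without replicates 1, 3 and 4 of E9.5.

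The stage change was also read with genes chosen by a difference between libraries that share no sample with the comparison. These were the genes past the threshold by at least 1 between E9.5 and E10.5 in PA1 labelled Hoxa2-/-, 192 higher and 174 lower. The filter and the spread in that fit came from all 68 libraries, the wildtype PA1 libraries included, so the choice was not fully separate. A stage score was the mean log2(CPM + 1) of the first set minus that of the second. In wildtype PA1 the score was -2.74 ± 0.12 in the 5 libraries of E9.0, -2.01 ± 0.35 in the 5 of E9.5 and 1.24 ± 0.13 in the 3 of E10.5. Replicate 5 had the highest E9.5 score, -1.42, and the other 4 E9.5 libraries lay between -2.27 and -1.95. All E9.0 libraries were below all E9.5 libraries. The genes were chosen for the interval from E9.5 to E10.5, so the sizes of the steps are not compared.

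**Figure D3:**
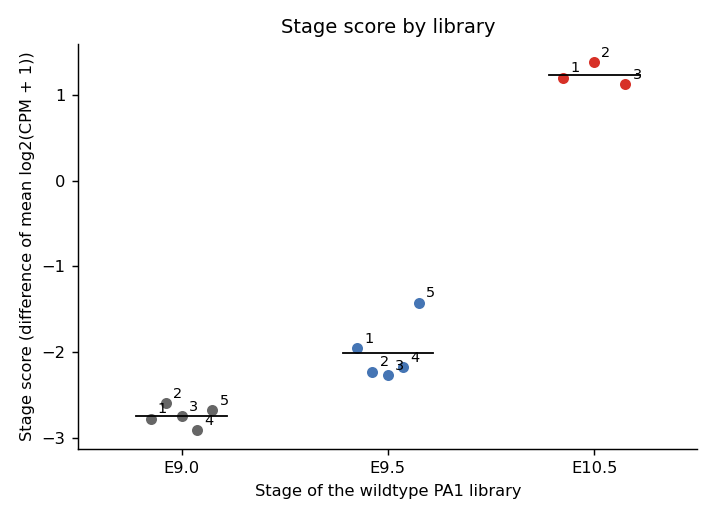
The stage score, in log2(CPM + 1) units, is plotted for each wildtype PA1 library by stage, with replicate numbers beside the points and bars at the group means. E9.0 lies between -2.92 and -2.60, E9.5 between -2.27 and -1.42 with replicate 5 highest, and E10.5 between 1.13 and 1.39.

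The gene lists of signalling pathways differed in how many members moved. Of all tested genes 19.8% rose and 21.1% fell, the reference for every list count from here on. In the Wnt pathway list, 19 of 44 tested genes rose (43.2%) and 4 fell (9.09%), with a median of 0.44. The risers included inhibitors and modulators of the pathway: the Dickkopf gene Dkk2 went from 2.73 ± 1.62 to 23.6 ± 3.9 CPM, the Wnt-binding Frzb from 34.8 ± 7.71 to 162 ± 4.85 CPM, Apcdd1 from 9.15 ± 0.95 to 46.4 ± 11.8 CPM and the R-spondin gene Rspo2, which amplifies Wnt signals, from 12.3 ± 1.03 to 43.2 ± 8.21 CPM. Among ligands, Wnt7b rose from 5.77 ± 3.86 to 27.9 ± 2.82 CPM and Wnt9b, an ectodermal ligand needed for lip closure, from 6.85 ± 3.27 to 21.5 ± 5.26 CPM. Wnt5a, a ligand of the non-canonical branch, fell: 101.4, 119, 71.2, 108 and 84.3 CPM at E9.5 and 44.5, 52.6 and 56.1 CPM at E10.5 (difference -0.89, SE 0.21). Tcf7, a transcriptional effector, fell from 48.8 ± 10.4 to 22.7 ± 2.49 CPM.

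Retinoic acid genes rose in 9 of 20 (45%) and fell in 2 (10%). The synthesizing enzyme Aldh1a2 rose by 3.53, while another enzyme of the same step, Aldh1a3, fell from 18.4 ± 8.6 to 6.36 ± 0.534 CPM. The degrading enzymes also split: Cyp26c1 fell from 9.05 ± 3.75 to 0.668 ± 0.287 CPM and Cyp26b1 rose from 0.321 ± 0.315 to 1.78 ± 0.418 CPM. Crabp2, the carrier protein, rose from 227 ± 32 to 306 ± 12.1 CPM. At both steps 1 enzyme gene rose while another fell. Without replicates 1, 3 and 4 of E9.5, 5 genes of the list rose and 1 fell, and the adjusted p of Aldh1a3 was 0.0587. The call of Crabp2 was lost without replicate 2 of E9.5 or replicate 1 of E10.5, with an adjusted p up to 0.0675.

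The FGF list had 5 of 26 genes higher and 4 lower, shares near those of all genes. Fgf9, a ligand, rose from 0.918 ± 0.586 to 5.83 ± 0.904 CPM and the receptor Fgfr2 from 99.5 ± 32.7 to 187 ± 8.74 CPM. Fgf8, the oral ectoderm ligand that induces Lhx6 and Lhx8, had 32.6, 26.3, 24.6, 24.9 and 28.8 CPM and 22.8, 17.2 and 20.5 CPM, lower in all E10.5 libraries but short of the threshold (adjusted p = 0.11). The ETS effectors moved in both directions: Etv4 rose from 6.92 ± 0.583 to 15.3 ± 4.2 CPM, Etv1 from 16.9 ± 2.67 to 32.2 ± 2.46 CPM, and Etv5 fell from 114 ± 17.2 to 82.1 ± 13.3 CPM. The call of Etv5 was lost without replicate 2, 4 or 5 of E9.5 or replicate 1 or 2 of E10.5, with an adjusted p up to 0.263. The feedback inhibitor Spry4 fell from 24.9 ± 2.61 to 12.2 ± 2.01 CPM.

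The BMP and TGF-beta list had 5 of 28 higher (17.9%) and 4 lower (14.3%), no more than the shares of all genes. Its ligands Tgfb2, from 6.93 ± 3.41 to 21.5 ± 7.67 CPM, and Tgfb3, from 5.02 ± 1.98 to 11.9 ± 1 CPM, rose, and Tgfb1 fell from 6.64 ± 1.58 to 4.24 ± 0.663 CPM. The call of Tgfb1 was lost without replicate 3 or 4 of E9.5 or replicate 1 of E10.5, with an adjusted p up to 0.121. The BMP-responsive inhibitors of bHLH factors divided, Id1 and Id3 falling by 0.79 and 0.78 and Id2 rising by 0.50. In the Hedgehog list 3 of 16 rose (18.8%, near the share of all genes) and the inhibitor Sufu fell. The risers were the forkhead targets Foxf1 (19.1 ± 10.7 to 57.5 ± 3.15 CPM) and Foxf2 (9.05 ± 2.68 to 23.4 ± 2.22 CPM) and the coreceptor Gas1, and 8 genes rose without replicates 2 and 5 of E9.5 and 1 without replicates 1, 3 and 4, where the adjusted p of Foxf1 was 0.159. Shh itself was at 2.21 ± 0.605 and 3.64 ± 0.917 CPM and did not pass. In the Notch list 2 of 19 rose and 4 fell, with the effectors Hey1, from 39.3 ± 12.8 to 16.6 ± 3.86 CPM, and Hey2, from 8.82 ± 2.02 to 2.55 ± 0.112 CPM, among the fallers.

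**Figure D4:**
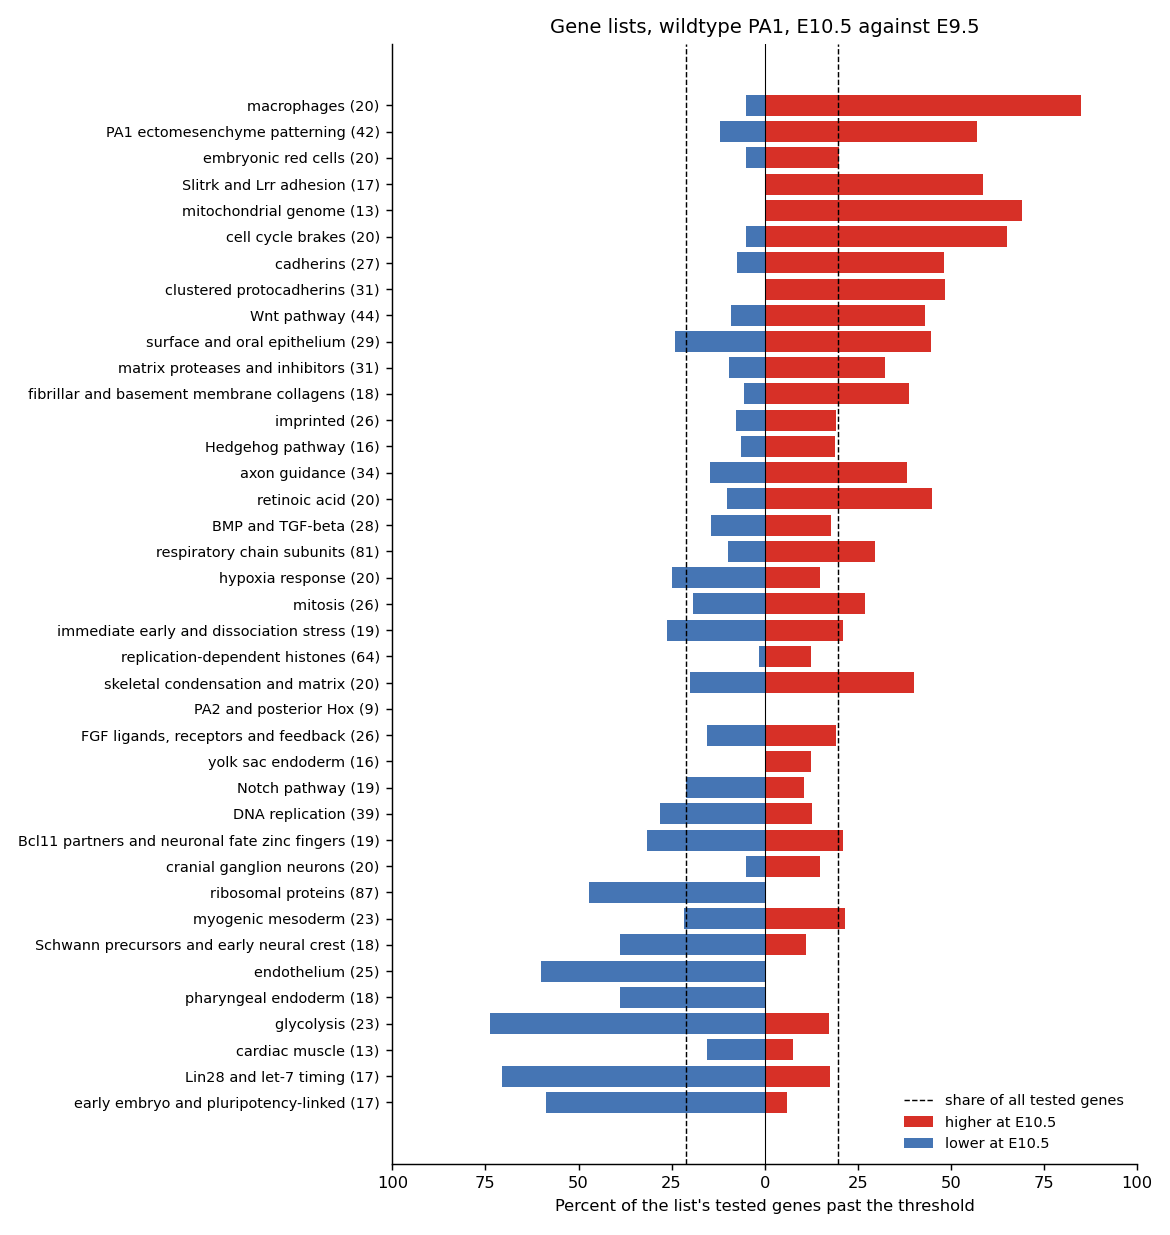
Bars give the percent of each list's tested genes (number in brackets) that rose (red, to the right) or fell (blue, to the left) in wildtype PA1 from E9.5 to E10.5. Dashed lines mark the shares of all tested genes, 19.8% higher and 21.1% lower, and lists are ordered by their median difference, from the early embryo list at -1.15 to the macrophage list at 1.33.

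Among adhesion and guidance genes more rose than fell. In the list of Slitrk genes and related leucine-rich repeat proteins 10 of 17 rose (58.8%). Beside Slitrk6, Lrrn3 went from 1.1 ± 0.693 to 8.36 ± 2.15 CPM, Lrrn1 from 12.3 ± 2.1 to 49.2 ± 3.57 CPM and Flrt2, a ligand of Unc5 receptors, from 26.4 ± 8.26 to 88.9 ± 2.99 CPM. Of 34 axon guidance genes 13 rose (38.2%) and 5 fell (14.7%). The ephrin receptors Epha4 (18.2 ± 6.02 to 72.5 ± 7.82 CPM) and Epha3 (30.4 ± 5.18 to 99.9 ± 1.75 CPM) and the scavenging chemokine receptor Ackr3 (6.54 ± 1.06 to 24.3 ± 2.26 CPM) led the gains, and Plxna4, a semaphorin receptor, fell from 12.5 ± 5.35 to 3.26 ± 0.578 CPM. Of 27 cadherins 13 rose (48.1%) and 2 fell (7.41%). The risers were led by Pcdh10, Pcdh9 (1.21 ± 0.67 to 7.96 ± 0.328 CPM) and the atypical cadherin Fat4 (7.82 ± 0.875 to 28.6 ± 3.87 CPM). Of 31 clustered protocadherins 15 rose (48.4%). These share exons and similar sequence, so their reads cannot be assigned with certainty, and all were at low levels, with a list sum between 40.3 and 80.1 CPM at E9.5 and between 90.1 and 98.4 CPM at E10.5. Without replicates 1, 3 and 4 of E9.5, 5 of the guidance genes, 8 of the clustered protocadherins, 9 of the cadherins and 7 of the Slitrk list rose, and the adjusted p of Plxna4 was 0.0693.

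Matrix genes rose from an uneven start. Of 18 collagens 7 rose (38.9%) and 1 fell (5.56%), but their summed level ran from 909 to 2277 CPM among E9.5 libraries, against 1954 to 2041 CPM at E10.5. Col3a1, a fibrillar collagen, had 184, 510.0, 177, 377 and 459.6 CPM at E9.5 and 813, 836 and 759 CPM at E10.5. Col1a1 had 7.69, 67.5, 7.11, 33.6 and 5.03 CPM at E9.5, with replicates 2 and 4 high, and 33.2, 31 and 29.8 CPM at E10.5, and did not pass. Of 20 skeletal genes 8 rose (40%) and 4 fell (20%, near the share of all genes). Runx1, from 0.776 ± 0.319 to 4.51 ± 1.24 CPM, and the cartilage collagen Col9a1, from 87 ± 29.4 to 226 ± 14 CPM, rose, and Sox9, the master factor of cartilage, fell from 119 ± 29.9 to 73.4 ± 4.62 CPM. Among 31 matrix proteases and inhibitors 10 rose (32.3%) and 3 fell (9.68%), and Adam12, a metalloprotease, fell most, from 28.3 ± 7.5 to 6.91 ± 1.26 CPM. Without replicates 1, 3 and 4 of E9.5, 4 collagens rose and 3 fell, 4 skeletal genes rose and 5 of the protease list rose, and the adjusted p of Col3a1 was 0.304.

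Markers of the other cells in the arch moved in different directions. Of 20 macrophage genes 17 rose and 1 fell, the largest share of risers (85.0%) among the cell type lists. Csf1r, the receptor that macrophages need, had 0, 0.057, 0.0683, 1.12 and 0.688 CPM at E9.5 and 8.39, 8.44 and 6.82 CPM at E10.5, a rise of 2.74 (SE 0.32, adjusted p = 5.11e-10). The complement genes C1qb and C1qc were at 0.157 ± 0.194 and 0.0661 ± 0.118 CPM at E9.5 and at 4.28 ± 1.13 and 2.87 ± 0.291 CPM at E10.5, and C1qa was at 0 in all 5 E9.5 libraries and at 0.708, 1.21 and 1.25 CPM at E10.5. F13a1, a marker of fetal macrophages, went from 0.21 ± 0.297 to 6.24 ± 1.53 CPM. The list sum ran from 82.3 to 104 CPM at E9.5 and from 117 to 148 CPM at E10.5, and Dab2, an endocytic adaptor that other cells of the arch also use, had 66.9 ± 7.29 and 58.4 ± 3.92 CPM of it.

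Endothelial genes moved the other way: 15 of 25 fell (60.0%), with a median of -0.53, and the list sum was 516 to 657 CPM at E9.5 and 375 to 436 CPM at E10.5. Cdh5, the cadherin of endothelial junctions, went from 16.2 ± 3.05 to 8.03 ± 1.75 CPM, Flt1, a VEGF receptor, from 19.9 ± 4.47 to 7.96 ± 1.31 CPM and Plvap, of fenestrated vessels, from 75.3 ± 15.1 to 29.1 ± 4.12 CPM. Red cell genes were higher by sum, 2874 to 4089 CPM at E9.5 and 6066 to 8612 CPM at E10.5. Of these 20 genes 4 rose (20%, near the 19.8% of all genes) and 1 fell (5%). The embryonic globin gene Hbb-y had 1112, 1013, 879, 726 and 1267 CPM at E9.5 and 2951, 2211 and 3138 CPM at E10.5 (adjusted p = 0.034). The adult-type Hbb-bs, which shares sequence with Hbb-bt and is therefore uncertain, fell from 74 ± 34 to 18.7 ± 1.97 CPM. The call of Hbb-y was lost without replicate 3 or 4 of E9.5 or replicate 1, 2 or 3 of E10.5, with an adjusted p up to 0.101. The call of Hbb-bs was lost without replicate 1, 3 or 4 of E9.5 or replicate 1, 2 or 3 of E10.5, with an adjusted p up to 0.1. Whether more blood in the E10.5 samples plays a part in the gains of the macrophage genes was not tested.

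In the epithelium the keratin genes exchanged. Of 29 surface and oral epithelium genes 13 rose (44.8%) and 7 fell (24.1%, near the share of all genes). The simple-epithelium keratin Krt18 had 247, 212, 279, 209 and 170.4 CPM at E9.5 and 78.9, 63.8 and 82.9 CPM at E10.5, a difference of -1.55 (SE 0.23), and its partner Krt8 fell from 180.3 ± 27.1 to 83.8 ± 10.499 CPM. Keratins of stratified epithelium rose from low levels, Krt5 from 0.225 ± 0.16 to 3.74 ± 1.78 CPM and Krt15 from 4.04 ± 1.36 to 14.9 ± 2.82 CPM. Grhl3, a grainyhead factor of surface epithelium whose human gene is mutated in Van der Woude syndrome, had 3.69, 3.88, 3.08, 2.4 and 4.98 CPM and 27.2, 27.6 and 28.5 CPM, a rise of 2.67 (SE 0.42, adjusted p = 8.5e-07). The general epithelial marker Epcam fell from 112 ± 19.6 to 66.2 ± 3.18 CPM. Pharyngeal endoderm genes fell in 7 of 18 (38.9%), led by Pax1, from 12.3 ± 3.81 to 1.39 ± 0.609 CPM. Their list sum was 111 to 129 CPM at E9.5 and 57.0 to 63.8 CPM at E10.5. Foxi2, an early placode and ectoderm factor, fell from 33.8 ± 10.504 to 4.38 ± 1.65 CPM.

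Muscle and nerve genes moved in both directions. Of 23 myogenic genes 5 rose and 5 fell (21.7% each, near the shares of all genes). The determination genes Myf5, from 0.93 ± 0.453 to 3.17 ± 1.01 CPM, and Myod1, from 0.498 ± 0.386 to 1.25 ± 0.252 CPM, rose, and the head-muscle progenitor genes Tcf21, from 13 ± 5.1 to 2.93 ± 0.409 CPM, and Tbx1, from 22.4 ± 7.16 to 6.43 ± 0.493 CPM, fell. Cardiac muscle genes were uneven among E9.5 libraries, with a list sum between 6.88 and 117 CPM, and Myh7 had 2.5, 15.6, 3.01, 27.2 and 1.85 CPM there against 0.381, 0.316 and 0.208 CPM at E10.5. The call of Myh7 was lost without replicate 2 or 4 of E9.5 or replicate 2 or 3 of E10.5, with an adjusted p up to 0.0739. Of 18 early neural crest and Schwann precursor genes 2 rose (11.1%) and 7 fell (38.9%). Cdh19 went from 3.27 ± 1.41 to 0.897 ± 0.306 CPM and Tfap2a from 7.32 ± 1.75 to 3.41 ± 0.767 CPM. The call of Cdh19 was lost without replicate 1 of E10.5, with an adjusted p up to 0.0569. Of 20 neuronal genes 3 rose (15%) and 1 fell (5%), and Tubb3, a neuronal tubulin, went from 2.176 ± 1.29 to 8.77 ± 1.95 CPM. Neurog1 and Neurog2, proneural factors of the cranial ganglia, and Prph were at 0 in all E10.5 libraries. Of 16 yolk sac genes 2 rose (12.5%), Cited1 (22.7 ± 3.24 to 64.9 ± 10.45 CPM) and Apob (0.424 ± 0.286 to 2.16 ± 0.417 CPM). The other 14 did not pass, and the list median was -0.0046. The list sum went from between 22.8 and 29.9 CPM to between 60.4 and 81.1 CPM, and Cited1 made up most of it at both stages. The call of Apob was lost without replicate 3 of E9.5 or replicate 1 or 2 of E10.5, with an adjusted p up to 0.0928.

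Among abundant transcripts, glycolysis genes fell together. Of 23 tested genes 17 fell (73.9%, against 21.1% of all genes) and 4 rose, with a median of -0.69. Ldha, the lactate dehydrogenase subunit that favours lactate production, lies at chr7:46841475-46855627 on the plus strand and had 5572, 5093, 7211, 5461 and 4673 CPM at E9.5 and 2407, 2185 and 2536 CPM at E10.5, a difference of -1.22 (SE 0.14, adjusted p = 7.16e-10) and among the largest losses in CPM of any gene. Its heart-type partner Ldhb, at chr6:142490249-142507957 on the minus strand, went the opposite way, with 104, 102, 65.3, 100.5 and 141 CPM and 538, 601 and 559 CPM, a rise of 2.49 (SE 0.23, adjusted p = 3.64e-13). The stages did not overlap for either subunit. The glucose transporter genes Slc2a3, from 547 ± 46.3 to 208 ± 13.9 CPM, and Slc2a1, from 255 ± 28.7 to 126 ± 11.4 CPM, and the lactate transporters Slc16a1, from 345 ± 25.6 to 146 ± 2.24 CPM, and Slc16a3, from 162 ± 22.7 to 58.5 ± 4.74 CPM, fell with Ldha. The hypoxia list, which shares Slc2a1 and Pdk1 with it, had 3 of 20 higher (15%) and 5 lower (25%), near the shares of all genes.

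The mitochondrially encoded genes rose in 9 of 13 (69.2%), with mt-Co3 going from 716 ± 73.3 to 1508 ± 146 CPM and mt-Cytb from 1180 ± 132 to 2013 ± 167 CPM. The mitochondrial-like gene Gm28437, at 719 ± 70.2 and 1503 ± 133 CPM, tracked mt-Co3 library by library, and reads of such near-identical copies cannot be told apart. Of 81 nuclear genes of the respiratory chain 24 rose (29.6%) and 8 fell (9.88%) with all libraries. Without replicates 2 and 5 of E9.5, 5 rose and 11 fell, and without replicates 1, 3 and 4, 33 rose and 2 fell. Of 87 ribosomal protein genes 41 fell (47.1%), and 61 and 6 fell in the same alternatives. The direction of the respiratory list and the size of the ribosomal count therefore rested on which E9.5 libraries were used. Other transcripts with large losses in CPM were Lars2 (4829, 2652, 5213, 5753 and 2918 CPM at E9.5 and 1568, 1782 and 1631 CPM at E10.5), Hsp90ab1 (3887 ± 429 to 2150 ± 36.1 CPM), Eno1 (3684 ± 380.3 to 2283 ± 196 CPM) and Eif5a (2843 ± 379 to 1503 ± 12.4 CPM). Lars2 was lower in replicates 2 and 5 than in the other E9.5 libraries. Hnrnpa2b1, among the largest gains in CPM, had 1077, 1997, 878, 1550 and 1876 CPM at E9.5 and 2393, 2296 and 2318 CPM at E10.5, and without replicates 1, 3 and 4 its adjusted p was 0.181.

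Cell cycle genes were mixed, and inhibitors rose. Of 39 DNA replication genes 5 rose (12.8%) and 11 fell (28.2%), and of 26 mitosis genes 7 rose (26.9%) and 5 fell (19.2%). The medians were -0.08 and 0.06. Of 20 cell cycle brakes 13 rose (65.0%) and 1 fell, with a median of 0.61. Trp53inp1, a p53-induced gene, went from 9.23 ± 3.03 to 46.5 ± 3.48 CPM, the unconventional cyclin Ccng2 from 38.4 ± 4.68 to 138 ± 1.88 CPM and the imprinted kinase inhibitor Cdkn1c from 124 ± 22.3 to 248 ± 36.5 CPM, while Trp53 itself fell from 273 ± 35.8 to 183 ± 4.91 CPM. Among 26 imprinted genes 5 rose (19.2%, near the share of all genes) and 2 fell (7.69%). Plagl1, a zinc finger regulator of that network, went from 64 ± 15.1 to 237 ± 12.2 CPM and Phlda2 from 7.34 ± 4.5 to 0.731 ± 0.373 CPM. Of 64 genes in the list named for replication-dependent histones 8 rose (12.5%) and 1 fell (1.56%). The list is not limited to that class. It also holds H1f0, among the risers with a difference of 1.10, and H2afx, the faller, with -0.40. The libraries were made from polyadenylated RNA, and most transcripts of replication-dependent histone genes lack a poly(A) tail. Of 19 immediate early genes, which respond to handling, 4 rose (21.1%) and 5 fell (26.3%), near the shares of all genes. Their sum was 314 to 422 CPM at E9.5 and 306 to 332 CPM at E10.5.

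The change in PA1 was set beside that in PA2. Each PA2 library carries the number of a PA1 library of its stage and, per the series text, the arches came from a single embryo, so the comparisons share embryos but no libraries. In wildtype PA2, 6326 genes passed (34.3%). Of the 7543 genes past the threshold in PA1, 3889 also passed in PA2 in the same direction, 51.6% of the PA1 genes and 61.5% of those of PA2, and 43 passed in the opposite direction. The stage change itself differed between the arches for 503 genes (2.73%), 347 (1.88%) with the more positive change in PA1 and 156 (0.847%) with the more positive change in PA2. The number of such genes ran from 198 to 980 when single libraries were left out, lowest without replicate 1 of wildtype PA2 at E10.5 and highest without replicate 2 of wildtype PA1 at E9.5. Of the 42 ectomesenchyme patterning genes 14 differed. The fit behind these counts held no term for the embryo. With embryo as the block and only the compared groups, 544 genes differed, of which 294 were among the 503.

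Tbx22 had the largest difference toward PA1. In PA2 it was at 0.2 ± 0.0624 CPM at E9.5 (n = 4) and 0.553 ± 0.27 CPM at E10.5 (n = 3), against 23.6 ± 1.71 CPM in PA1 at E10.5, and the changes differed by 4.05 (SE 0.38, adjusted p = 3.74e-11). Alx4 rose in PA1 and went from 9.72 ± 1.71 to 4.37 ± 0.628 CPM in PA2, a difference of 4.03 (SE 0.42). Zmat4 went from 4.35 ± 1.41 to 4.25 ± 0.529 CPM in PA2, a difference of 3.81 (SE 0.40). Lhx6 also belonged here, at 1.56 ± 0.768 and 2.13 ± 0.216 CPM in PA2 and with a difference of 3.07 (adjusted p = 3.68e-06). The difference of 3.77 for Fgf4, an early FGF ligand, came from PA2 alone, where it went from 13 ± 2.45 to 0.0185 ± 0.032 CPM while it was at 0 in all 8 PA1 libraries, and it did not pass in edgeR.

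The opposite sign marked genes whose gain was larger in PA2. Hmx1, a homeobox factor of the outer ear and geniculate ganglion, stayed low in PA1, with 0.156, 0.342, 0.273, 0.561 and 1.06 CPM at E9.5 and 0.0545, 0.896 and 0.989 CPM at E10.5, and went from 1.32 ± 1.82 to 31.7 ± 2.31 CPM in PA2, a difference of -3.97 (SE 0.54). The uncharacterised 3110099E03Rik rose in both, to 11.6 CPM in PA1 and to 162 ± 13.1 CPM in PA2, a difference of -3.63 that did not pass in edgeR. Dlx4 was at 4.7 ± 2.1 and 4.3 ± 1.24 CPM in PA1 and went from 2.47 ± 2.07 to 12.9 ± 0.525 CPM in PA2, and the antisense transcripts Dlx4os and Dlx6os1 differed by -2.87 and -2.06. The difference for Dlx6os1 passed narrowly (adjusted p = 0.05) and was lost in edgeR and without 10 of the single libraries. The strandedness of the counting is not given in the sources used here, so antisense genes and their partners cannot be told apart. Among the 3 genes that open this account, Slitrk6 rose more in PA1 (difference 1.84, adjusted p = 0.0444). That difference passed narrowly, and its values without single libraries are not reported here. For Bcl11a and Bcl11b the differences of -0.60 (SE 0.69) and 0.73 (SE 0.58) did not pass. Both Bcl11 genes rose in PA2 too, to 67.8 ± 8.57 and 32 ± 4.65 CPM. Lin28a, Prtg and Nr6a1 fell in PA2 as well, with changes of -3.72, -3.42 and -3.06, and their differences between the arches did not pass.

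**Figure D5:**
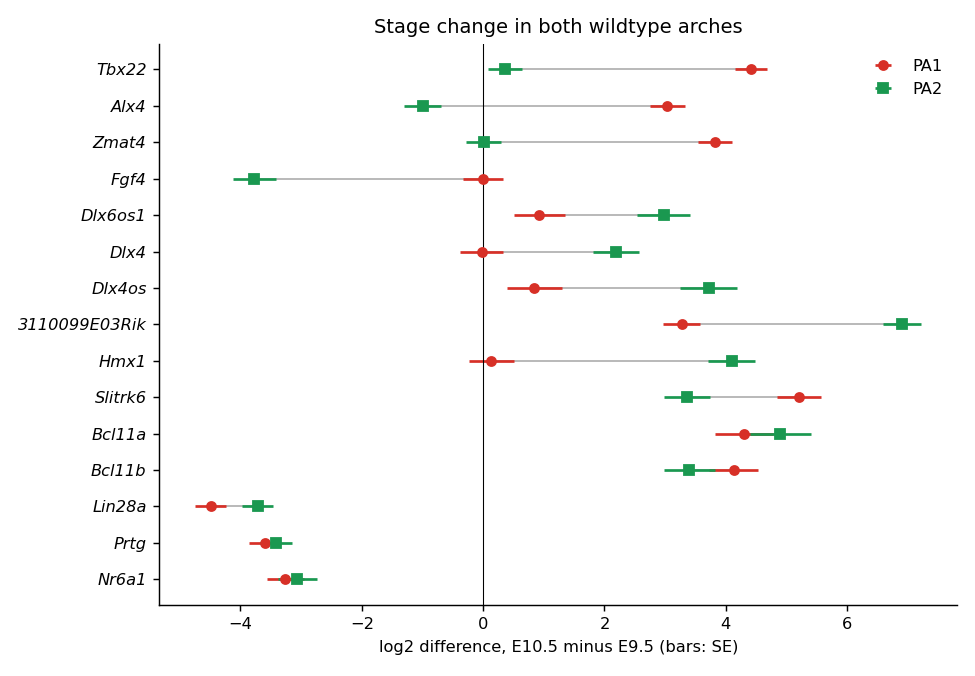
The change of log2(CPM + 1) from E9.5 to E10.5 is shown for 15 genes in wildtype PA1 (red circles) and wildtype PA2 (green squares), with bars for the SE. The first 4 genes have the more positive change in PA1 and the next 5 in PA2, and the differences between the arches for Bcl11a, Bcl11b, Lin28a, Prtg and Nr6a1 did not pass the threshold.

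Hoxa2 itself was near 0 in PA1 under either label, at 0.267 ± 0.267 and 0.519 ± 0.44 CPM in wildtype and 0.329 ± 0.0822 and 0.377 ± 0.204 CPM under the Hoxa2-/- label, so its level in this arch does not check the label. In PA1 labelled Hoxa2-/- the same stages gave 3230 genes past the threshold (17.5%), 1458 (7.91%) higher and 1772 (9.62%) lower. Of the 7543 wildtype genes, 2392 passed there in the same direction, 31.7% of the wildtype genes and 74.1% of the labelled ones, and 2 passed in the opposite direction. The sign alone was the same for 86.4% of the 7543. Of the 1159 wildtype genes that changed by at least 1, 1127 had the same sign and 691 passed. Slitrk6 was at 1.99 ± 3.35 CPM at E9.5 (n = 5) and 34.3 ± 4.01 CPM at E10.5 (n = 3) under this label, Bcl11a at 4.94 ± 6.4 and 42.4 ± 7.25 CPM and Lin28a at 129 ± 32.2 and 24.8 ± 11.7 CPM. The 3 genes thus moved in the same direction as in wildtype PA1, and all passed the threshold.

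The stage change differed between the labels for 692 genes (3.76%), 410 more positive and 282 more negative under the Hoxa2-/- label. Wfikkn1 differed by 2.83 (SE 0.44, adjusted p = 0.000322), with 19.9 ± 14.3 CPM left at E10.5 under the label against 1.29 ± 0.28 CPM in wildtype. Lin28a differed by 2.06 (SE 0.35, adjusted p = 0.0012) and had 24.8 ± 11.7 CPM left at E10.5 under the label against 6.36 ± 2.57 CPM in wildtype. Gabrp was at 0.761 ± 0.602 CPM and Aldh1a2 at 3.88 ± 3.54 CPM at E10.5 under the label, with differences of -2.44 and -2.12. When limma was fitted to the 4 compared groups alone, 0 genes passed and 3519 had an unadjusted p under 0.05. Libraries with the Hoxa2-/- label were at 9.28 to 15.3 CPM of Ski in PA1, on the other side of the division from the wildtype libraries compared here, so the label and the division cannot be told apart. The direction of the respiratory chain list in wildtype PA1 rested on the E9.5 libraries used. Under the label 47 of its 81 genes were higher, against 7.91% of all genes, and in wildtype PA2 56 were higher, against 16.1%. Of the 87 ribosomal genes, 41 of which fell in wildtype PA1, 2 were higher and 0 lower under the label. In wildtype PA2, 2 of them were higher and 1 lower.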

How the data were processed

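RNA of single dissected arches, held as polyadenylated RNA and made into libraries with SMART-seq v4 and Nextera XT per the labels' protocols, was sequenced by the authors. The submitters' processing notes name bcl2fastq 2.18, TopHat2 2.1.1, R 3.3.2 and the build mm10, which is GRCm38. The counting program and strandedness are not given in the sources used here. The authors deposited 1 table of 68 libraries and 21948 genes, a normalized signal (CPM, counts scaled to a common library total) whose column totals run from 926298 to 1051959 and so carry a further scaling. Whole read counts were recovered from the deposited steps in 67 libraries, with 100% of values within 0.01 of a whole number; the step of 1 library labelled Hoxa2-/- PA1 E9.0 could not be told from rounding. The design had assumed plain CPM, and the test was unchanged.

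Symbols for 21921 genes came from GENCODE M21. Differences were fitted with limma 3.58.1 (R 4.3.3, trended empirical Bayes) on log2(CPM + 1), for genes with at least 1 CPM in at least 3 libraries (18428 genes), with all 68 libraries in 16 groups, and Benjamini-Hochberg adjusted p under 0.05 over all genes tested. edgeR 4.0.16 (quasi-likelihood) on the recovered reads was an alternative, as were pseudocounts, filters, scaling, a sex covariate, fewer groups, the replicate block and leaving out libraries. The script was tested on simulated data. Named genes were the 15 largest differences in each direction (mean of at least 5 CPM in the higher group, no overlap, an assigned symbol), the 5 largest in mean CPM, Slitrk6, Bcl11a and Bcl11b, up to 3 per list and direction and any member of lists of up to 20 genes, 5 per direction of each difference of changes, and genes passing from under 1 to at least 5 CPM or back. The members and lists were chosen with earlier results of these data known. Some genes that these rules name are not reported here. Other genes were named after their values were seen.

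Numbers shared by E9.5 and E10.5 mark different embryos, and deviations of same-numbered libraries correlated at 0.117, 0.128 and -0.0734, so they pair no samples there. Numbers shared by PA1 and PA2 mark 1 embryo, with correlations of 0.471, -0.0752, 0.0219 and 0.478 at E9.5 and 0.462, 0.419 and 0.381 at E10.5. Intervals of 3 reads cover counting error only. Wildtype E10.0 was not used. Figures were drawn with matplotlib 3.10.9, and tables made with Python 3.11.15 and pandas 2.3.3.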

Additional observations from a re-analysis of the deposited data

Results flagged for a closer look

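In 11 of 162 genes checked, 1 of the 5 E9.5 libraries of wildtype PA1 lay far above the other 4 by Dixon's test. By chance about 1 group in 20 is flagged, and 11 of 162 is near that rate. In 7 of the 11 it was replicate 5, at 1.91 CPM for Slitrk6 (the next highest library had 0.57), 0.635 for Tbx22 (0.171), 1.43 for Emx2 (0.401), 4.76 for Lhx6 (2.32), 35.0 for Lhx8 (12.9), 3.07 for Syt6 (0.97) and 0.741 for F13a1 (0.104). All 7 genes rose from E9.5 to E10.5, but the genes checked include those named for their change between these stages. Replicate 2 stood out at 41.2 CPM for Adam12 and 96.4 CPM for Dnmt3b, and replicate 3 at 33.1 CPM for Aldh1a3 and 0.273 CPM for C1qc, and of these 4 genes only C1qc rose.

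The stage change differed between wildtype PA1 and PA2, tested as the difference of changes in limma, by 4.05 for Tbx22, 4.03 for Alx4, 3.81 for Zmat4 and 3.77 for Fgf4, with PA1 the more positive. It differed by -3.97 for Hmx1, -3.63 for 3110099E03Rik, -2.87 for Dlx4os, -2.22 for Dlx4 and -2.06 for Dlx6os1, with PA2 the more positive.

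Between PA1 labelled Hoxa2-/- and wildtype PA1 the change differed by 2.83 for Wfikkn1, 2.06 for Lin28a, 1.48 for BC051077, 1.39 for Mcrip2 and 1.38 for Gm15541, more positive under the label. It differed by -2.44 for Gabrp, -2.12 for Aldh1a2, -1.99 for Gm47854, -1.88 for AW551984 and -1.80 for 6430511E19Rik. None of these 10 passed when only the 4 compared groups were fitted, and label and library division cannot be told apart.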

How the results depend on the processing

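The count of 7543 genes in wildtype PA1 ran from 5638 to 7709 across other scalings, filters, pseudocounts and fits and from 6089 to 7699 when single libraries were left out. Of the alternatives added after seeing the data, leaving out replicates 2 and 5 of E9.5 gave 7922 and leaving out replicates 1, 3 and 4 gave 4799. The difference of changes between PA1 and PA2 gave 503 genes, and 198 to 980 without single libraries. The count of 3230 under the Hoxa2-/- label was 1328 when the compared groups were fitted alone and ran from 1485 to 4075 without single libraries. The difference between the labels, 692 genes in limma and 752 in edgeR, was 1210 with a sex covariate and 0 when the compared groups were fitted alone, where 3519 genes had an unadjusted p under 0.05, and ran from 160 to 1328 without single libraries. The cause was not tested.

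The replicate block, by number in the labels and with only the compared groups, gave 5638 genes for wildtype PA1, 1239 under the Hoxa2-/- label and 0 for the difference between the labels, where 3448 had an unadjusted p under 0.05. With embryo as the replicate block, the difference between PA1 and PA2 gave 544 genes, of which 294 were among the 503. The block changed the sign of differences near 0 that passed in neither fit, to 0.24 for Dlx4 and 0.0082 for Dlx5.

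Single differences that did not pass and lay near 0 also changed sign when E9.5 libraries were left out. Without replicates 1, 3 and 4 they were 0.12 for Dlx5, -0.0693 for Hmx1 and 0.15 for Twist1, and without replicates 2 and 5 0.10 for Dlx4. Without single libraries Dlx4 ran from -0.30 to 0.14, Dlx5 from -0.13 to 0.0937 and Hmx1 from -0.0335 to 0.42. Counts below about 3 reads, 0.156 to 0.240 CPM, were not resolved at this depth.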
